A study of Mus musculus with 28 samples.

Results

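Glyoxylate, hydroxyproline and hydroxy acid oxidase genes were followed in liver and kidney of male C57BL/6 mice gavaged for 7 days with nicotinamide mononucleotide (NMN), a precursor of NAD+, or with water. The set held 10 genes, matched by symbol among the 54446 genes counted in each library: Hao1, Hao2, Prodh2, Prodh, Agxt, Grhpr, Hoga1, Hyi, Dao and Pipox. It was centred on Hao2 in kidney and on Prodh2 in both organs because of their values in the NMN mice. The differences of these 10 genes between NMN and water mice are therefore given as a description without their p-values. Where members that passed a threshold are counted, nothing is read from the counts.

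The mice, given as C57BL/6 in the labels and as C57BL6J in the study's methods, were 8 weeks old, and no transgene or further agent is named for any group. At 1340 mg/kg/d there were 4 NMN and 4 water libraries per organ, and at 2680 mg/kg/d there were 3 and 3, giving 28 libraries in all. The water mice of each schedule were gavaged as often as its NMN mice, so dose, number of daily gavages and library set cannot be told apart between schedules. The libraries were made from polyA RNA, and the sources do not state whether a liver and a kidney with the same number came from the same mouse.

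Between 12688324 and 33872983 reads per library were assigned to genes. In kidney, the NMN libraries of the 1340 mg/kg/d schedule (13174264 to 14006288) were all smaller than the water libraries (15354270 to 15696435). Under the 2680 mg/kg/d schedule the NMN libraries (22922994 to 33872983) were all larger than the controls (16358886 to 18983689). Mitochondrial transcripts took 8.92% to 10.6% of the counts in the kidneys of the 1340 mg/kg/d schedule and 19.8% to 21.6% at 2680 mg/kg/d. Liver NMN replicate 4 at 1340 mg/kg/d stood apart in its no-feature reads, those not lying wholly within the exons of a gene. They were 12.8% of its reads, against 3.27% to 7.44% in the other liver libraries. Values without this library are given beside the results that rest on it. Levels are given as scaled CPM, each library's gene counts put on a common library size. The 5 hepatocyte markers summed to 117800 scaled CPM or more in every liver of the water mice and to no more than 174 in their kidneys. The proximal tubule markers summed to between 8900 and 10530 in the kidneys of the water mice.

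The set covers the route from collagen-derived hydroxyproline to glyoxylate and the enzymes that make or remove glyoxylate. Hydroxyproline is oxidised in mitochondria by the Prodh2 product, passed through the Aldh4a1 and Got2 products, and split by the Hoga1 product into glyoxylate and pyruvate. Peroxisomal Agxt turns glyoxylate into glycine, Grhpr reduces it to glycolate, and Hao1, the glycolate oxidase of liver peroxisomes, makes glyoxylate from glycolate. Glyoxylate that escapes these steps can become oxalate, and defects of AGXT, GRHPR and HOGA1 cause the primary hyperoxalurias in humans. Hao2 is the related peroxisomal oxidase of longer 2-hydroxy acids, Dao is the D-amino acid oxidase, Pipox oxidises pipecolic acid and sarcosine, Prodh is the proline dehydrogenase, and Hyi is a hydroxypyruvate isomerase.

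Promoter sequences are shown for Hao1 and Hao2, paralogues read in opposite organs, and for Prodh2, which was read in both. They come from RefSeq, build GRCm38.p6, and run in the direction of the gene from 250 bases before its start to 50 bases after it. Hao1 lies at chr2:134554303-134554602 on the minus strand, Hao2 at chr3:98893181-98893480 on the minus strand, and Prodh2 at chr7:30493408-30493707 on the plus strand. Capitals mark every match, on either strand, to the full HNF1 motif or to its first 6 letters alone, GTTAAT, here called the short HNF1 site. HNF1 is a homeodomain factor of liver and kidney epithelium.
Hao1: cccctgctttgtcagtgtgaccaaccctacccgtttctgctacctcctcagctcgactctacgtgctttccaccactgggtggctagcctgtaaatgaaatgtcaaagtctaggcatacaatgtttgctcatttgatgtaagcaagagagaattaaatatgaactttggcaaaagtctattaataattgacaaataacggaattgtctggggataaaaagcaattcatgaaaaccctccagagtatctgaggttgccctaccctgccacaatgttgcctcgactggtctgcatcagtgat
Hao2: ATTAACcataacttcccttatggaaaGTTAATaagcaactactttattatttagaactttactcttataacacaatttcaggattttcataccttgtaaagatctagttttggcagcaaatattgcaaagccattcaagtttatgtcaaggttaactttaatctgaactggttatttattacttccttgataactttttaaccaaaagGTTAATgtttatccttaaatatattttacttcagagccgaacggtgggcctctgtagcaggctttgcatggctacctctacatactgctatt
Prodh2: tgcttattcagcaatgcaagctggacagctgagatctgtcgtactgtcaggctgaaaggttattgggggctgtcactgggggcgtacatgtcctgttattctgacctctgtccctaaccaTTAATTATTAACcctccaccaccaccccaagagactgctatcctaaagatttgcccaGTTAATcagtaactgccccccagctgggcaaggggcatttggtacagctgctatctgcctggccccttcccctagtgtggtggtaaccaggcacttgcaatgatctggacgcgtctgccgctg

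The full HNF1 motif was found on the minus strand of the Prodh2 promoter, beginning 130 bases before the start, and overlapped 1 of its short sites. A further short site of Prodh2 began 73 bases before the start. The Hao2 promoter held 3 short sites, at 250, 224 and 42 bases before the start, and the Hao1 window held neither form. Among 32851 promoters of the same length, 20 (0.0609%) held the full motif and 2332 (7.1%) held a short site. Of the 9 members with a promoter in the table, which left Hyi without one, Prodh2 alone held the full motif, and Hao2, Hoga1 and Prodh2 held a short site. The DR1 motif of nuclear receptors, found in 0.0396% of all promoters, matched no member, and the HNF4-specific letters CAAAGTCCA, found in 0.475%, matched Pipox. Such matches describe letters only.

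Where each gene was read was compared first, between kidney and liver of the water mice. The set was centred on values in the NMN mice and not on this contrast, although earlier results of these data were known. Levels between genes are given as scaled CPM per kb of annotated exon. In the livers of the 2680 mg/kg/d schedule the order was Agxt (278 ± 50.8, SD, n = 3), Pipox (230 ± 17.99), Grhpr (179 ± 19.2), Hao1 (141 ± 13.8), Hoga1 (107 ± 13.0), Prodh2 (106 ± 15.8), Hyi (32.5 ± 1.41) and Prodh (19.1 ± 5.41). Hoga1 and Prodh2 were within their spread of each other, as were Agxt and Pipox. In the kidneys of the same schedule Pipox led (162 ± 5.74), followed by Hao2 (112 ± 6.00), Dao (81.1 ± 5.54), Hoga1 (69.4 ± 2.24), Grhpr (57.4 ± 3.53), Hyi (25.7 ± 3.18), Prodh2 (25.1 ± 1.02) and Prodh (10.7 ± 0.934). Hyi and Prodh2 did not differ beyond their spread there. In the 1340 mg/kg/d schedule (n = 4) the leading gene was again Agxt in liver (296 ± 37.4), with Pipox at 154 ± 17.0 behind Grhpr (203 ± 41.6) and Hao1 (181 ± 22.4). Pipox (111 ± 7.04), Hao2 (103 ± 12.1) and Dao (93.0 ± 7.28) led in kidney. Grhpr, Hao1 and Pipox in those livers, and Pipox, Hao2 and Dao in those kidneys, were each within the spread of the next.

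**Figure D1:**
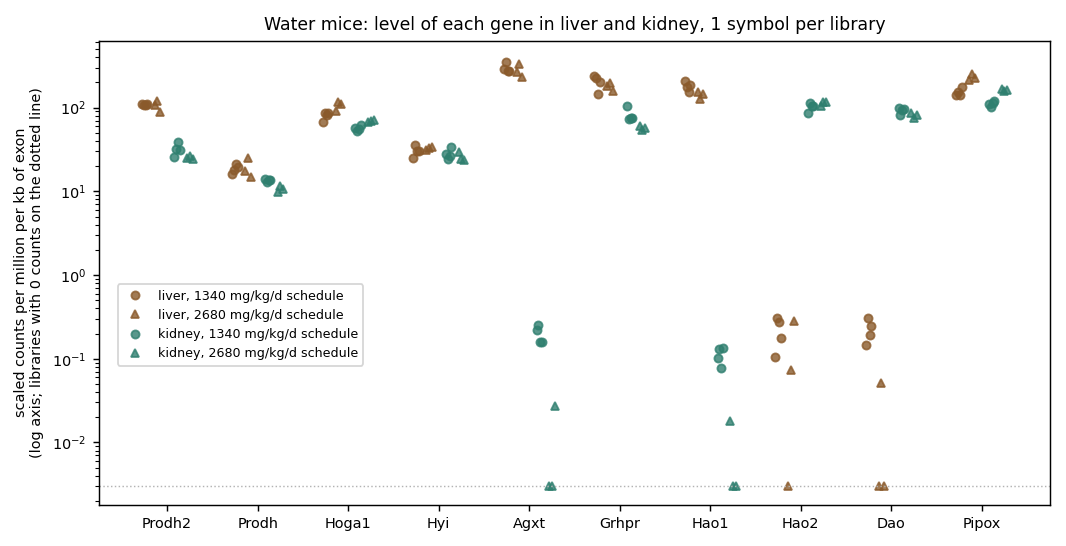
Level of each gene in the liver and kidney libraries of the water mice, in scaled CPM per kb of exon on a log axis, with 1 symbol per library (4 per organ at 1340 mg/kg/d, 3 at 2680 mg/kg/d). Hao1 and Agxt were read in liver and Hao2 and Dao in kidney, while the other 6 genes were read in both organs, Hyi at nearly the same level.

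By edgeR's quasi-likelihood test, 9 of the 10 genes differed between the organs at 1340 mg/kg/d and all 10 at 2680 mg/kg/d, at an adjusted p under 0.05. Between these organs 66.9% and 70.5% of all genes tested were called, so counts of this size are common. The median log2 difference of all genes was 0.10 and 0.17 in favour of kidney. Prodh2 was lower in kidney by log2 -1.74 ± 0.13 (SE, adjusted p = 6.96e-08) at 1340 mg/kg/d and by -2.04 ± 0.12 (adjusted p = 8.12e-08) at 2680 mg/kg/d. Grhpr was lower in kidney by -1.28 ± 0.17 (adjusted p = 1.32e-05) and -1.60 ± 0.11 (adjusted p = 2.92e-07). The differences of Hoga1 (-0.49 and -0.59), Prodh (-0.45 and -0.80) and Pipox (-0.44 and -0.47) were smaller, with adjusted p between 0.00116 and 0.00353. Hyi did not pass at 1340 mg/kg/d (-0.09 ± 0.14, adjusted p = 0.594). At 2680 mg/kg/d it passed narrowly (-0.30 ± 0.12, adjusted p = 0.0484), and that call was lost without kidney water replicate 2 (adjusted p = 0.168) or replicate 3 (adjusted p = 0.193), without the filter (adjusted p = 0.0871) and in DESeq2 (adjusted p = 0.0527).

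Hao1, Agxt, Hao2 and Dao were nearly confined to 1 organ. Hao1, the glycolate oxidase, had 4469, 4398, 3758 and 4640 counts in the livers and 5, 7, 4 and 7 in the kidneys of the water mice at 1340 mg/kg/d. The 2680 mg/kg/d livers held 4609, 3852 and 3983 counts and the kidneys 1, 0 and 0. Agxt, which makes glycine from glyoxylate, had 4552, 6566, 4901 and 5106 counts in liver and 8, 10, 6 and 6 in kidney, and then 5940, 7563 and 4783 against 0, 0 and 1. The organs were far apart in every library of both genes. Hao2 ran the other way, with 3807, 5517, 4869 and 4819 counts in kidney against 2, 7, 6 and 4 in liver, and 5263, 5021 and 5068 against 0, 2 and 7. Dao had 6351, 5721, 6287 and 6359 counts in kidney against 4, 10, 6 and 8 in liver, and 6186, 4709 and 5216 against 0, 2 and 0. The adjusted p of these 4 genes lay between 2.94e-13 and 9.97e-10. Their fitted folds depend on the prior count, so ratios with a 95% exact Poisson interval, which covers counting error only, are given instead. Hao2 was 981-fold higher in kidney (517 to 2146) at 2680 mg/kg/d and 466-fold (298 to 774) at 1340 mg/kg/d. Hao1 was 21633-fold higher in liver (3883 to 854471) and 1612-fold (1074 to 2543), respectively. At 2680 mg/kg/d, leaving out 1 library moved the fitted log2 difference of Hao2, kidney against liver, from 9.93 to between 9.30 and 11.44. That of Hao1 moved from -13.81 to between -15.34 and -13.40.

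These traces were smaller at 2680 mg/kg/d, as were those of other genes of the same home organ, although the intervals of Hao2 overlapped between schedules. In the kidneys of the water mice at 1340 mg/kg/d, Hao1 stood at 0.062% of its liver level (95% interval 0.0393 to 0.0931), Agxt at 0.0661% (0.0446 to 0.0944), Alb, the main hepatocyte transcript, at 0.0591% (0.0575 to 0.0607) and Uox, the urate oxidase, at 0.0616% (0.0517 to 0.0729). The shares under the 2680 mg/kg/d schedule were 0.00462%, 0.00315%, 0.0047% and 0.00209% in the same order. In liver at 1340 mg/kg/d, Hao2 stood at 0.215% of its kidney level (0.129 to 0.335) and Dao at 0.243% (0.162 to 0.352), beside Slc34a1, the phosphate transporter of the proximal tubule, at 0.251% (0.229 to 0.274) and Umod, the uromodulin of the thick ascending limb, at 0.258% (0.22 to 0.301). Dao at 2680 mg/kg/d stood at 0.0216%, Slc34a1 at 0.0253% and Umod at 0.0253%. Hao2 stood at 0.102% (0.0466 to 0.193), above the interval of Slc34a1 (0.0178 to 0.0349) and overlapping that of Lrp2, at 0.0724% (0.0515 to 0.099). Of the 9 Hao2 counts, 7 were in liver water replicate 3. A single liver likewise held 27 of 37 counts of Slc34a1, 25 of 39 of Lrp2, 10 of 12 of Umod and 2 of 2 of Dao. The part of RNA from the other organ in these traces was not tested.

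**Figure D2:**
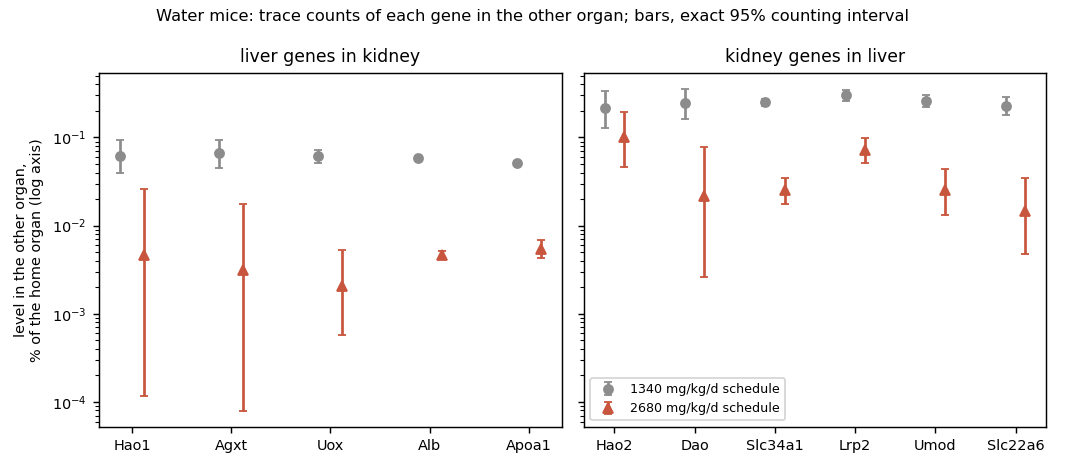
Level of liver genes in kidney and of kidney genes in liver, as a percentage of the level in the home organ on a log axis, from summed counts of the water mice, with exact 95% counting intervals. At 1340 mg/kg/d the liver genes lie between 0.0511% and 0.0661% and the kidney genes between 0.215% and 0.3%, and at 2680 mg/kg/d every gene shown is lower.

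Hao2 in kidney was level at 1340 mg/kg/d and low in the NMN mice at 2680 mg/kg/d. The water kidneys of the 1340 mg/kg/d schedule held 176, 235, 216 and 214 scaled CPM, and the NMN kidneys 141, 204, 217 and 200. These groups overlapped, with a log2 difference of -0.14 ± 0.13 (SE). At 2680 mg/kg/d the water kidneys held 215, 236 and 237 and the NMN kidneys 103, 83.3 and 91.0. All 3 NMN mice lay below the lowest water mouse of either schedule, and the fitted level was 0.403 of that in water (log2 -1.31 ± 0.09). The log2 value stayed between -1.40 and -1.24 when each library was left out in turn. The difference of the NMN effect between schedules was -1.17 ± 0.18 on the log2 scale. In bulk kidney, fewer cells of a type and less RNA per cell cannot be told apart.

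Prodh2, which opens hydroxyproline breakdown, was low in the NMN mice of the 2680 mg/kg/d schedule in both organs. The livers of the 1340 mg/kg/d schedule held 271, 266, 267 and 268 scaled CPM in water and 268, 261, 225 and 214 in NMN mice. The difference was log2 -0.14 ± 0.11, and -0.10 ± 0.12 without liver NMN replicate 4. At 2680 mg/kg/d the water livers held 263, 296 and 219 and the NMN livers 83.9, 78.2 and 48.6. The highest NMN liver was below any water liver, and the fitted level was 0.277 of that in water (log2 -1.85 ± 0.21). Kidney Prodh2 stood at 63.7, 77.9, 96.4 and 77.5 in water and 63.9, 64.3, 83.6 and 65.6 in NMN mice at 1340 mg/kg/d, which overlapped (-0.19 ± 0.13). At 2680 mg/kg/d it stood at 60.8, 64.4 and 59.6 in water and 35.5, 41.7 and 47.5 in NMN mice, which did not overlap (-0.56 ± 0.10, a fitted level of 0.678). The difference of the NMN effect between schedules was -1.71 ± 0.23 in liver and -0.38 ± 0.18 in kidney.

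**Figure D3:**
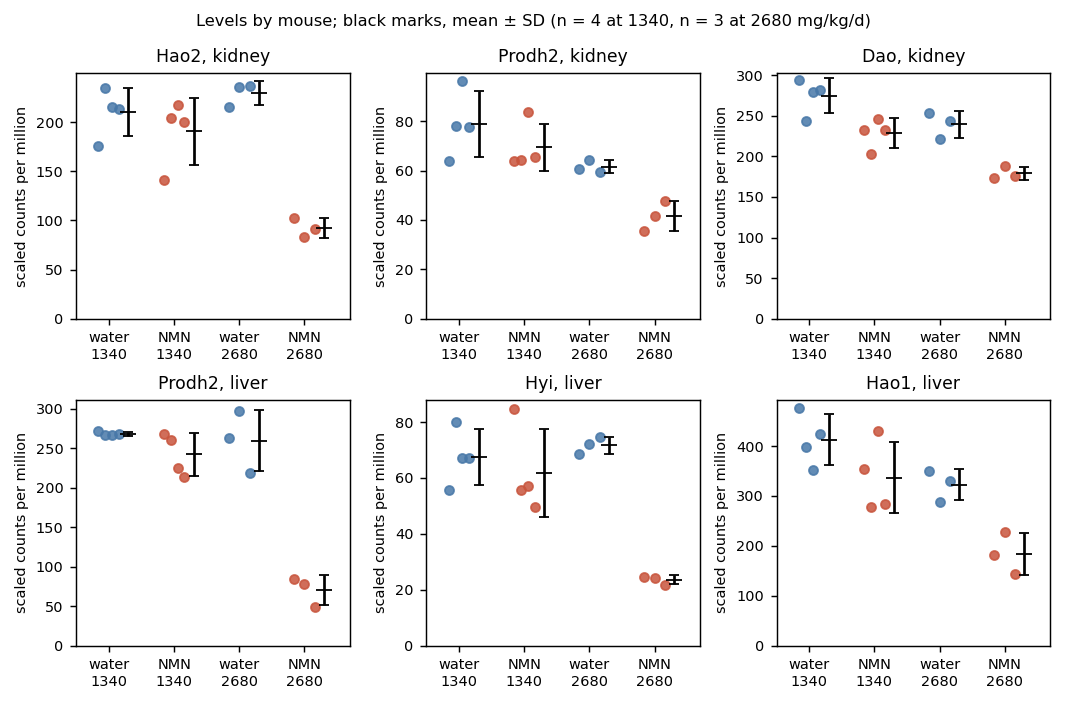
Scaled CPM by mouse for Hao2, Prodh2 and Dao in kidney and Prodh2, Hyi and Hao1 in liver, with water in blue, NMN in red and the mean ± SD in black (n = 4 at 1340 mg/kg/d, n = 3 at 2680 mg/kg/d). In each panel the 3 NMN mice of the 2680 mg/kg/d schedule lie below its 3 water mice, whereas NMN and water overlap at 1340 mg/kg/d.

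The next steps of hydroxyproline breakdown were read as follows. Hoga1, which releases glyoxylate, stood in the livers of the 2680 mg/kg/d schedule at 208, 264 and 250.5 in water and at 138, 154 and 172.5 in NMN mice, which did not overlap (log2 -0.61 ± 0.15). Its liver difference at 1340 mg/kg/d was -0.06 ± 0.14. In kidney the 2680 mg/kg/d groups did not overlap either, with 153, 155 and 162.5 in water and 144, 135 and 139 in NMN mice, but the difference was small (-0.17 ± 0.07). Prodh, the proline counterpart of Prodh2, held 135, 196 and 116 in water livers and 92.1, 106 and 111 in NMN livers of that schedule (-0.51 ± 0.19), and its kidney difference was -0.02 ± 0.11. Leaving out 1 library put the liver value of Prodh between -0.64 and -0.26. The NMN livers were lower for both genes, with Prodh separated by only a few CPM.

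Of the genes that use or make glyoxylate, Hao1 in liver at 2680 mg/kg/d held 349.6, 288 and 331 in water and 181, 228 and 144 in NMN mice. These groups did not overlap, at log2 -0.78 ± 0.17 and a fitted level of 0.58. They overlapped at 1340 mg/kg/d, at -0.28 ± 0.16. Agxt held 451, 566 and 398 in the water livers and 469, 318 and 225 in the NMN livers of the 2680 mg/kg/d schedule, which overlapped (-0.44 ± 0.26). Leaving out 1 library put this value between -0.80 and -0.21. The liver difference of Agxt at 1340 mg/kg/d was -0.27 ± 0.17, and -0.12 ± 0.13 without liver NMN replicate 4, which held the lowest value of all the livers in that schedule (272, against 431 to 498 in the other NMN livers). Grhpr overlapped in liver under both schedules (0.11 ± 0.20 and -0.26 ± 0.18). In kidney it was the one member that was higher in all 3 NMN mice of the 2680 mg/kg/d schedule, with 114, 106 and 102 against 97.5, 86.2 and 92.4 (0.22 ± 0.08), and was -0.13 ± 0.11 at 1340 mg/kg/d.

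Hyi, the hydroxypyruvate isomerase, was low in the livers of the 2680 mg/kg/d NMN mice to a degree near that of Prodh2. It held 68.4, 72.0 and 74.6 in water and 24.7, 24.3 and 21.9 in NMN livers, a fitted level of 0.336 (log2 -1.57 ± 0.15). The NMN livers lay close together and far below the water livers. At 1340 mg/kg/d the water livers held 55.6, 80.0, 67.3 and 67.1 and the NMN livers 84.7, 55.5, 57.2 and 49.5, which overlapped (-0.12 ± 0.17). The difference of the NMN effect between schedules in liver was -1.45 ± 0.23. In kidney the log2 differences of Hyi were -0.29 ± 0.12 and -0.34 ± 0.10. The kidney groups overlapped at 1340 mg/kg/d and did not at 2680 mg/kg/d.

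Without liver NMN replicate 4 the log2 differences of the other members in liver at 1340 mg/kg/d were 0.24 ± 0.19 for Grhpr, -0.22 ± 0.16 for Hao1, -0.04 ± 0.18 for Hyi, 0.01 ± 0.14 for Hoga1, 0.03 ± 0.17 for Prodh and 0.08 ± 0.13 for Pipox.

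The remaining peroxisomal oxidases were Dao and Pipox. Dao in kidney held 253, 221 and 244 in water and 174, 188 and 176 in NMN mice at 2680 mg/kg/d, without overlap (log2 -0.41 ± 0.08, a fitted level of 0.75). At 1340 mg/kg/d it held 294, 244, 279 and 282 in water and 233, 203, 246 and 232 in NMN mice, and 1 NMN kidney lay above the lowest water kidney (-0.26 ± 0.09). The log2 differences of Pipox were 0.05 ± 0.12 and 0.06 ± 0.13 in liver and -0.03 ± 0.09 and 0.16 ± 0.09 in kidney, with overlapping groups throughout.

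Counted together, 8 of the 10 genes passed the filter on low counts in each contrast between NMN and water mice. Hao2 and Dao did not pass in liver, and Hao1 and Agxt did not pass in kidney. At an adjusted p under 0.05 in edgeR, no member was called at 1340 mg/kg/d, either in edgeR or in DESeq2, where 0.0161% of all genes tested were called in liver (2 of 12449) and 0.12% in kidney (18 of 14972). An unadjusted p under 0.05 was reached by 0 members in liver and 2 in kidney, beside 854 and 1338 of all genes tested. In liver at 2680 mg/kg/d 4 members were called, all lower (Prodh2, Hyi, Hao1 and Hoga1), among 7.08% of all genes tested (4.03% lower), and 5 were lower without overlap, a pattern that 16% of all genes showed. In kidney at 2680 mg/kg/d 2 were called, both lower (Hao2 and Prodh2), among 0.4% of all genes (0.282% lower), and 5 were lower and 1 higher without overlap, as were 9.01% and 8.11% of all genes. The members were chosen on these contrasts, so nothing is read from the counts. The liver count fell to 2 without water replicate 2, water replicate 3 or NMN replicate 3, and the kidney count to 1 without any one of the 3 water replicates or NMN replicate 2. For the difference between schedules, 2 members in liver (Prodh2 and Hyi) and 1 in kidney (Hao2) were among the 0.0746% and 0.00625% of all genes called, and nothing is read from these counts either. Without liver NMN replicate 4 of the 1340 mg/kg/d schedule the differences were -1.75 ± 0.24 for Prodh2 and -1.52 ± 0.23 for Hyi. The liver count fell to 1 without 2680 mg/kg/d water replicate 2 or 3 or NMN replicate 3, and with the replicate block. The kidney count held in 7 of 18 alternative fits, and fell to 0 without any library other than 1340 mg/kg/d water replicate 2 and NMN replicate 1 and 2680 mg/kg/d NMN replicate 1.

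**Figure D4:**
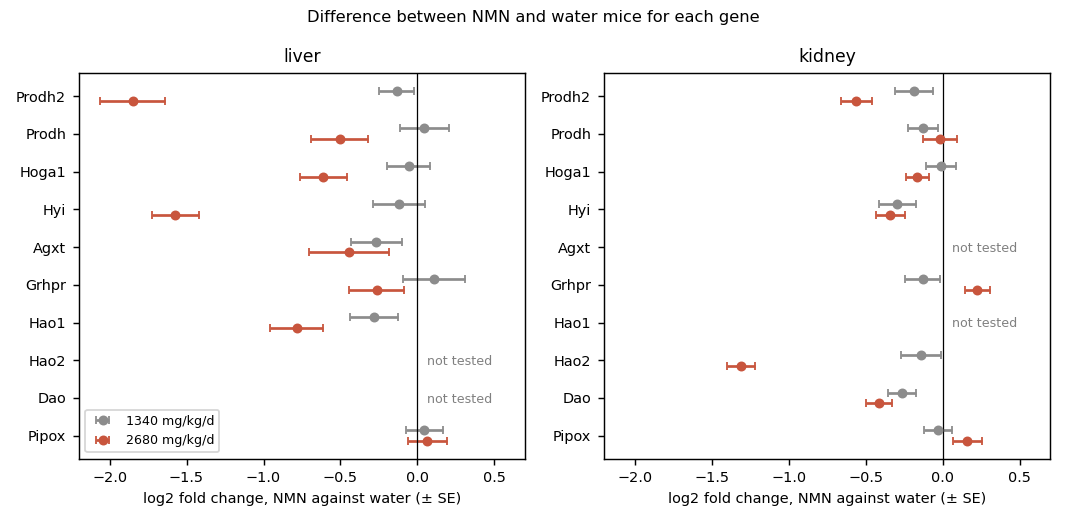
Log2 fold change of NMN against water (± SE) for the 10 genes in liver and kidney, at 1340 mg/kg/d (grey, n = 4 and 4) and 2680 mg/kg/d (red, n = 3 and 3). At 2680 mg/kg/d Prodh2 and Hyi lie lowest in liver (-1.85 and -1.57) and Hao2 in kidney (-1.31), and Pipox is near 0 in liver.

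The rest of the pathway was covered by 38 further genes in 4 lists, on proline and hydroxyproline handling (12), glyoxylate, glycine and serine (16), oxalate and sulfate exchange (2), and peroxisomal oxidases and their partners (8). In liver at 2680 mg/kg/d, 34 were tested, 6 fell and none rose, with a median log2 difference of -0.28 beside 0.00 for all genes tested, of which 4.03% fell. Oat, the ornithine aminotransferase, held 919, 889 and 1125 scaled CPM in water and 386, 437 and 420 in NMN livers. Its log2 change was -1.22 ± 0.14 (adjusted p = 0.00143). Aldh4a1, the step after Prodh2, held 424.5, 475 and 397 in water and 273, 253 and 235 in NMN livers, a change of -0.74 ± 0.14 (adjusted p = 0.0133). Another annotated gene, Gm21969, covers 32.5% of its exon bases, so its count is less certain. The groups did not overlap for either gene.

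Shmt1, a serine hydroxymethyltransferase, changed by -0.82 ± 0.14 (adjusted p = 0.00852), and Gcsh, the H protein of glycine cleavage, by -0.53 ± 0.14 (adjusted p = 0.0416). Slc26a1, a sulfate and oxalate exchanger, changed by -0.59 ± 0.14 (adjusted p = 0.0307). Ddo, the D-aspartate oxidase, held 24.3, 27.5 and 22.5 in water and 9.88, 9.58 and 7.12 in NMN livers, a change of -1.45 ± 0.21 (adjusted p = 0.00404). The count of 6 fell to 3 without liver water replicate 2 or NMN replicate 3. None of the 35 genes tested was called by edgeR for the difference between schedules in liver (4 at an unadjusted p under 0.05, beside 1154 of all 13412 genes, and 1 called by DESeq2 or without the filter), where Aldh4a1 stood at -0.62 ± 0.16 (adjusted p = 0.183), Oat at -0.87 ± 0.25 (adjusted p = 0.287), Glo1 at -0.37 ± 0.17 (adjusted p = 0.551), Ldha at -0.50 ± 0.24 (adjusted p = 0.588) and Ddo at -0.61 ± 0.26 (adjusted p = 0.515). Without liver NMN replicate 4 of the 1340 mg/kg/d schedule none was called either. An unadjusted p under 0.05 was then reached by 5, beside 1379 of all 13385 genes. Aldh4a1 stood at -0.62 ± 0.16 (adjusted p = 0.173) and Oat at -0.82 ± 0.26 (adjusted p = 0.281), while the count over all genes rose from 10 to 25.

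No further pathway gene was called by edgeR in the other 3 contrasts between NMN and water mice. In kidney Agxt2, the mitochondrial alanine-glyoxylate aminotransferase, came nearest. It held 101.5, 118 and 123 in water and 48.0, 72.7 and 64.8 in NMN kidneys at 2680 mg/kg/d, without overlap (-0.88 ± 0.15, adjusted p = 0.0514). At 1340 mg/kg/d it held 121, 109, 109 and 118 in water and 99.8, 74.2, 84.7 and 73.4 in NMN kidneys, again without overlap (-0.46 ± 0.10, adjusted p = 0.0886). Among the other kidney values at 2680 mg/kg/d, given for the genes of smallest p in each list, were those of Aldh4a1 (-0.27 ± 0.09, adjusted p = 0.265), Gcsh (-0.21 ± 0.07, adjusted p = 0.289), Slc26a6 (0.69 ± 0.26, adjusted p = 0.347), Ddo (-0.26 ± 0.11, adjusted p = 0.391), Cat (0.23 ± 0.10, adjusted p = 0.45) and P4ha1 (-0.16 ± 0.10, adjusted p = 0.589). Beside Agxt2, those at 1340 mg/kg/d included Glyctk (-0.32 ± 0.09, adjusted p = 0.234), Slc26a1 (-0.34 ± 0.10, adjusted p = 0.272), Aldh4a1 (-0.25 ± 0.09, adjusted p = 0.398), Pycrl (-0.29 ± 0.11, adjusted p = 0.425), Slc26a6 (-0.40 ± 0.17, adjusted p = 0.484) and Acox2 (0.19 ± 0.10, adjusted p = 0.583). Other annotated genes cover 54.2% of the exon bases of Glyctk, so its count is less certain. In liver at 1340 mg/kg/d Ddo held 20.4, 16.5, 25.2 and 21.5 in water and 12.4, 11.7, 11.5 and 11.0 in NMN mice, without overlap (-0.83 ± 0.18, adjusted p = 0.201). Other liver values in that contrast were those of Pycrl (-0.46 ± 0.15, adjusted p = 0.511), Shmt1 (-0.44 ± 0.15, adjusted p = 0.511), Hagh (-0.27 ± 0.11, adjusted p = 0.67), Slc26a1 (-0.33 ± 0.15, adjusted p = 0.711) and Oat (-0.34 ± 0.18, adjusted p = 0.802). Without liver NMN replicate 4, Ddo stood at -0.82 ± 0.20 (adjusted p = 0.187) and the median over the 34 genes was -0.14. Of these genes 7 reached an unadjusted p under 0.05, beside 900 of all 12704 genes. None of the 34 was called by edgeR, while the count over all genes rose from 2 to 18. The median over the further genes was -0.20 in liver and -0.07 in kidney at 1340 mg/kg/d, and 0.01 in kidney at 2680 mg/kg/d, with all genes tested at 0.00 in each. An unadjusted p under 0.05 was reached by 9 of the further genes in liver and 7 in kidney at 1340 mg/kg/d, and by 8 in kidney at 2680 mg/kg/d, beside 854 of 12449, 1338 of 14972 and 1688 of 15245 genes tested. DESeq2 called 1 further gene in each. Without the filter edgeR called 0, 1 and 3 in the same order, with the replicate block 0, 1 and 1, and without NMN replicate 1 it called 1 in kidney at 1340 mg/kg/d and 2 at 2680 mg/kg/d. Without NMN replicate 2 it called 1 in kidney at 2680 mg/kg/d.

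**Figure D5:**
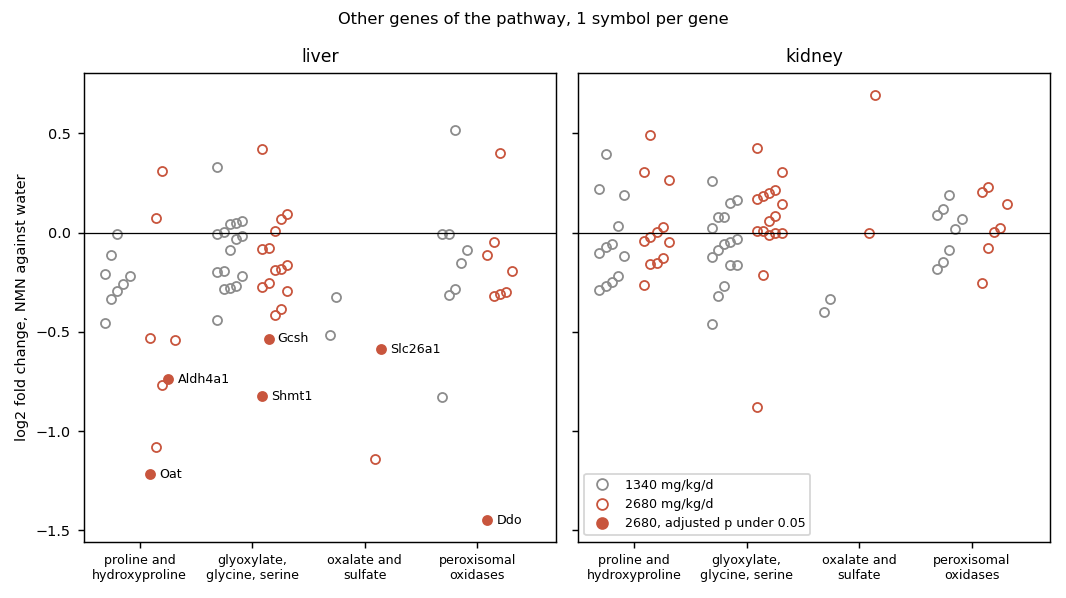
Log2 fold change of NMN against water for the further pathway genes that were tested, with 1 symbol per gene, by list, organ and schedule (grey, 1340 mg/kg/d, red, 2680 mg/kg/d), filled where the adjusted p was under 0.05. The filled symbols are the 6 liver genes at 2680 mg/kg/d, between -0.53 for Gcsh and -1.45 for Ddo.

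Between the organs of the water mice, 10 of 37 further genes were higher and 23 lower in kidney at 1340 mg/kg/d, and 9 and 24 at 2680 mg/kg/d, beside 66.9% and 70.5% of all genes called. Those higher in kidney included Pepd, which frees proline and hydroxyproline from dipeptides (1.84 ± 0.12 at 1340 mg/kg/d, adjusted p = 2.04e-08), and the peroxisomal acyl-CoA oxidase Acox3 (2.72 ± 0.13, adjusted p = 3.92e-10, and 2.76 ± 0.14, adjusted p = 2.02e-08). The amino acid transporters Slc6a19 and Slc6a20b were also higher there under both schedules, with adjusted p between 8.51e-11 and 1.62e-08. Those lower in kidney included Gnmt, the glycine N-methyltransferase (-7.23 ± 0.19 and -7.86 ± 0.16), Glo1 (-2.87 ± 0.12 and -3.14 ± 0.11), Oat (-2.34 ± 0.14 and -3.29 ± 0.14), Dmgdh (-2.68 ± 0.12 and -2.83 ± 0.13), Shmt1 (-2.47 ± 0.11 and -2.64 ± 0.14), Paox (-3.18 ± 0.19 and -3.49 ± 0.20) and catalase, Cat (-2.09 ± 0.11 and -2.35 ± 0.13), with adjusted p of 4.45e-08 or smaller. Slc26a1 was lower in kidney (-1.09 ± 0.12, adjusted p = 2.76e-06, and -1.22 ± 0.12, adjusted p = 4.72e-06), and Slc26a6, another oxalate exchanger, was higher at 1340 mg/kg/d (1.42 ± 0.33, adjusted p = 0.00181) and did not pass at 2680 mg/kg/d (0.45 ± 0.36, adjusted p = 0.286).

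Some cell type markers and library measures also differed between the NMN and water livers at 2680 mg/kg/d. No-feature reads took 3.62%, 3.27% and 3.47% in the water livers and 5.06%, 3.90% and 4.21% in the NMN livers, without overlap. Mitochondrial transcripts took 6.91%, 5.74% and 7.37% in water and 9.24%, 7.16% and 7.04% in NMN livers, with overlap. Of 5 hepatocyte markers 2 fell, Ttr by 0.97 ± 0.12 (adjusted p = 0.00227) and Serpina1c by 0.58 ± 0.12 (adjusted p = 0.0196), and Alb, the most abundant, stood at -0.36 ± 0.11 (adjusted p = 0.075). Their summed level was 236600, 221100 and 203500 scaled CPM in water and 150300, 174700 and 171400 in NMN livers. Of 4 pericentral markers 2 fell, Glul, the glutamine synthetase next to the central vein, by 1.32 ± 0.22 (adjusted p = 0.00831) and Lhpp by 0.85 ± 0.17 (adjusted p = 0.0157). The summed pericentral level, led by Cyp2e1, was 12580, 17240 and 15970 in water and 8964, 10580 and 12740 in NMN livers, with overlap. Of all genes tested in this contrast, 4.03% were called lower and 16% were lower without overlap. All 5 hepatocyte markers were negative, with a median of -0.40, and 4 were lower without overlap. All 4 pericentral markers were negative too, with a median of -0.73, and 3 were lower without overlap. The 4 periportal markers, with a median of 0.34 and 3 of 4 positive, summed to 1734, 2475 and 2606 in water and 3257, 3122 and 2884 in NMN livers, without overlap. Gene by gene, 2 periportal markers were higher and 1 lower without overlap. All 3 endothelial markers were positive, with a median of 0.36, and 2 were higher without overlap. None of 4 periportal, 4 Kupffer and sinusoidal, 3 bile duct or 3 endothelial markers was called. In kidney at 2680 mg/kg/d none of the proximal tubule markers was called, and Slc5a2, the glucose transporter of the early proximal tubule, stood at -0.54 ± 0.18 (adjusted p = 0.324), Slc34a1 at -0.33 ± 0.13 (adjusted p = 0.364) and Lrp2 at -0.29 ± 0.09 (adjusted p = 0.219). Cubn stood at 0.05 ± 0.09 (adjusted p = 0.88), and the S3 markers ranged from -0.45 ± 0.15 for Slc7a13 (adjusted p = 0.308) to 0.25 ± 0.18 for Slc5a10 (adjusted p = 0.667), with 2 of 4 positive. The median was -0.07 over the 5 proximal tubule markers, -0.16 over the 4 S1 and S2 markers, all 4 of them negative, and -0.01 over the 4 S3 markers. The 5 proximal tubule markers summed to 8900, 9188 and 9739 in water and 7092, 8929 and 8161 in NMN kidneys. In kidney at 1340 mg/kg/d no proximal tubule or thick ascending limb marker was called by edgeR either. The proximal tubule sum was 10530, 9469, 10280 and 9729 in water and 9331, 8487, 8529 and 9008 in NMN kidneys, and the thick ascending limb sum 2131, 2261, 2102 and 1869 against 2620, 2735, 2449 and 2751, both without overlap. All 4 S1 and S2 and all 4 S3 markers were negative there, with medians of -0.45 and -0.23, led in the first list by Slc5a2 (-0.63 ± 0.13, adjusted p = 0.0852). The part of cell composition and of these library measures in the values of Hao2, Prodh2, Hyi and Agxt2 was not tested.

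The control levels themselves were compared between the schedules, a contrast on which the set was not centred, although earlier results of these data were known. In liver Pipox was higher in the water mice of the 2680 mg/kg/d schedule by 0.56 ± 0.13 on the log2 scale (adjusted p = 0.0271), with 534, 619 and 554 scaled CPM against 351, 381, 351 and 440 and no overlap. It was the single member of 8 tested that was called, among 4.44% of all genes. Its adjusted p rose to between 0.0548 and 0.133 without 1340 mg/kg/d replicate 2 or any one of the 3 mice of the 2680 mg/kg/d schedule. With the replicate number as a block Hoga1 was also called (0.42 ± 0.11, adjusted p = 0.0303), and the count over all genes rose from 557 to 1038. Prodh2 (-0.07), Prodh (0.00), Agxt (-0.12) and Hyi (0.06) lay near 0, Grhpr stood at -0.21 ± 0.17 (adjusted p = 0.56), and Hao1 was lower without overlap (-0.38 ± 0.14, adjusted p = 0.152). Of 34 further genes Gnmt was called, at a higher level (0.70 ± 0.12, adjusted p = 0.00601), and with the block 7 were called.

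Other measures separated the same water livers. Mitochondrial transcripts took 3.89% to 5.34% at 1340 mg/kg/d and 5.74% to 7.37% at 2680 mg/kg/d, and no-feature reads 5.01% to 7.43% and 3.27% to 3.62%, both without overlap. Of the hepatocyte markers Alb was higher at 2680 mg/kg/d (0.74 ± 0.13, adjusted p = 0.00555), of the pericentral markers Lhpp was higher (0.68 ± 0.17, adjusted p = 0.0397), and of the periportal markers Pck1 was lower (-1.97 ± 0.39, adjusted p = 0.0374). Of 4 Kupffer and sinusoidal markers Clec4g (1.03 ± 0.17, adjusted p = 0.0054) and Stab2 (0.84 ± 0.19, adjusted p = 0.0255) were higher. The part of these in the Pipox difference was not tested.

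In kidney 5 of 8 members differed between the water mice of the schedules, among 18.3% of all genes. Pipox was higher at 2680 mg/kg/d (0.53 ± 0.08, adjusted p = 0.00039), with 414, 386 and 404 against 274, 252, 280 and 294. Hoga1 was higher (0.29 ± 0.08, adjusted p = 0.0217). Grhpr (-0.53 ± 0.11, adjusted p = 0.0044), Prodh (-0.36 ± 0.08, adjusted p = 0.00707) and Prodh2 (-0.37 ± 0.12, adjusted p = 0.0371) were lower. The groups of Prodh2 overlapped. Its call was lost in 6 of the 7 fits that left out a library, and that of Hoga1 in 4. Hao2 did not pass (0.11 ± 0.10, adjusted p = 0.472), and its control means were 210.2 ± 24.7 and 229.5 ± 12.3 scaled CPM (SD, n = 4 and 3). Of the 38 further genes 13 were lower and 1 higher in these kidneys, with a median of -0.24. The lower genes included Oat (-0.63 ± 0.08, adjusted p = 0.000108), Glo1 (-0.68 ± 0.09, adjusted p = 8.24e-05), Glyctk (-0.51 ± 0.08, adjusted p = 0.00047), Pex5, the import receptor of peroxisomal enzymes (-0.58 ± 0.08, adjusted p = 0.000209), and Slc26a6 (-1.23 ± 0.19, adjusted p = 0.000301). The count of Glyctk is less certain, since other annotated genes cover 54.2% of its exon bases. Dld was higher (0.26 ± 0.09, adjusted p = 0.0493). The mitochondrial share of counts was higher in each of the 2680 mg/kg/d kidneys than in any at 1340 mg/kg/d. No-feature reads took 9.21% to 12.5% in the water kidneys at 1340 mg/kg/d and 6.85% to 7.36% at 2680 mg/kg/d. Of 3 endothelial markers 2 were called higher at 2680 mg/kg/d, and of 5 collecting duct markers 1 higher and 1 lower. In each list of proximal tubule, S1 and S2, and S3 markers 1 was called lower. So were 4 of 5 hepatocyte and 2 of 3 bile duct markers. The part of these measures in the differences was not tested.

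The genes most like Hao2 and Prodh2 were sought by the Pearson correlation of log2 scaled counts over the 14 libraries of an organ, each schedule centred on its mean. Of 14546 kidney genes, those closest to Hao2 were Gm31651 (r = 0.878), Aldh3b1 (0.873), Aqp4 (0.867), Gm4890 (0.86) and Folh1 (0.852), and the r of Prodh2 was 0.787. The other members lay between -0.614 (Grhpr) and 0.667 (Dao), with Pipox at -0.589. The genes closest to Prodh2 in kidney were Tada2a (0.921), Tchh (0.92), Gm15990 (0.894), 2310014F06Rik (0.885) and Cpn1 (0.879). In liver they were Aldh4a1 (0.974), Macrod1 (0.971), Serpinf1 (0.961), Pyroxd2 (0.96) and Naglu (0.959) of 11981 genes, and Hyi stood at 0.93. The other members there lay between -0.209 (Pipox) and 0.782 (Hao1). The 14 libraries share the contrast on which Hao2 and Prodh2 were chosen. With each of the 4 groups centred on its own mean, r fell to 0.381 between Hao2 and Prodh2 in kidney, to 0.2 between Hao2 and Aldh3b1, and to 0.308 between Prodh2 and Hyi in liver, while it was 0.758 between Prodh2 and Aldh4a1 in liver and 0.902 between Prodh2 and Tada2a in kidney. For the other genes closest to Hao2 it was 0.601 (Gm31651), 0.569 (Gm4890), 0.151 (Aqp4) and 0.102 (Folh1). Among the members, Grhpr was lowest with Hao2 in kidney (-0.771) and Agxt highest with Prodh2 in liver (0.819).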

How the data were processed

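The study sequenced polyA RNA from liver and kidney. Alignment by the authors used STAR, and HTSeq then assigned reads to exons, strictly and without strand. The deposited files hold the resulting raw counts per gene, 1 file a library. The build named in the methods is not a mouse build, so no coordinate rests on it. Lines that name no gene were left out (no-feature reads were 3.27% to 12.8%). GENCODE symbols matched 53229 of 54446 identifiers with their version, 1180 without it and 37 not at all. Exons of another gene overlap 1.9% of Hoga1, 0.0905% of Hyi and no base of the other 8 genes.

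Counts were tested in edgeR 4.0.16 (R 4.3.3) with TMM factors, filterByExpr and the robust quasi-likelihood fit, with Benjamini-Hochberg adjustment over all genes tested and a threshold of 0.05. Each comparison was fitted on its own groups, and the difference between schedules as an interaction term within an organ. Scaled CPM used TMM factors over all 28 libraries, and was divided by exon length where genes are compared. Correlations used a prior count of 2. The study's figure legends call the replicates biological, and the p-values measure the spread between these libraries.

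The 10 genes and the pathway and marker lists were chosen with earlier results of these data known. Named genes were the members, up to 4 called genes per pathway list and comparison (or the 2 of smallest p), and the 5 most correlated genes. The values of 1 listed gene are not reported here. Alternatives were the size factors and the Wald test of DESeq2 1.42.0, no filter, the replicate number as a block, each library left out, and an adjusted p under 0.01 with a fold over 2. On simulated data with 200 changed genes, edgeR recovered 46.1% of genes changed by 1 on the log2 scale and 89.2% of those changed by 2 for NMN against water in liver at 1340 mg/kg/d (12449 genes), 37.7% and 78.7% in liver at 2680 (12477), 74.8% and 86.6% in kidney at 1340 (14972), 81.5% and 91.3% in kidney at 2680 (15245), and 11.4% and 61.6% for the difference between schedules in liver (13412) and 50.5% and 76.8% in kidney (15989). Same-numbered water livers of the schedules deviated together (correlations 0.15 to 0.33 over 3 pairs), a hint from the data and not from the labels. In the other comparisons of groups at least 1 pair lay below 0.1.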

Additional observations from a re-analysis of the deposited data

Results flagged for a closer look

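In groups of 4, a library was flagged where its gap to the nearest other library, over the range of the group, passed Dixon's 95% critical value for 4 samples, which chance passes in about 1 of 20 groups. Of the 37 groups of member genes, 3 passed. Prodh2 in kidney NMN replicate 3 at 1340 mg/kg/d stood at 83.6 scaled CPM, above 63.9, 64.3 and 65.6 in the other NMN kidneys. Grhpr in kidney water replicate 1 at 1340 mg/kg/d stood at 166, above 118 to 121 in the others, and Grhpr in kidney NMN replicate 1 at 141, above 110 to 115 in the others.

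The interaction term of NMN and schedule drew attention to 3 members. The log2 differences between schedules were -1.71 ± 0.23 (SE) for Prodh2 in liver, -1.45 ± 0.23 for Hyi in liver and -1.17 ± 0.18 for Hao2 in kidney. The genes were chosen on these contrasts, so the values are a description and not a test.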

How the results depend on the processing

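In the contrasts between organs and between the water mice of the schedules, 377 of 396 recomputed member values kept their side of the threshold, 18 lost a call and 1 gained one. Of these 396 values 7 changed sign, as did 21 of 640 in the contrasts given without a test, in each case for a reported log2 value of 0.169 or less in size. Counts over all genes moved more. Without the filter, the counts were 44 for NMN against water in liver at 1340 mg/kg/d (2 in the report), 1785 in liver at 2680 (883), 269 in kidney at 1340 (18), 514 in kidney at 2680 (61), 1236 for the water livers between schedules (557), and 71 and 106 for the difference between schedules in liver (10) and kidney (1). DESeq2 gave 74, 1448, 159, 236, 1002, 99 and 10 in the same order. The stricter threshold left 135 in liver at 2680 mg/kg/d. Members called in kidney at 2680 mg/kg/d rose from 2 to 4 without the filter. Leaving out each library gave 0 to 18, 211 to 1308, 5 to 67 and 3 to 191 genes in the 4 NMN contrasts in that order, 310 to 657 and 1632 to 2880 between the water livers and water kidneys of the schedules, and 7 to 25 and 0 to 1 for the differences in liver and kidney. Members called then ranged over 2 to 4 in liver and 1 to 2 in kidney at 2680 mg/kg/d, 0 to 1 and 3 to 5 between the schedules in water livers and kidneys, and 1 to 2 and 0 to 1 for the differences in liver and kidney. The counts between organs stayed within 1.5 times under every alternative. The cause of these shifts was not tested.

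With the replicate number as a block the counts were 16, 1153, 75 and 92 in the 4 NMN contrasts, 1038 between the water livers and 2 for the difference in kidney, and members called were 2 between the water livers and 1 for the difference in liver. The labels give no pairing of libraries by number, and do not state whether 2 organs came from the same mouse. The lowest correlation of a pair was -0.034, 0.058, -0.099 and -0.014 in the 4 NMN contrasts. There 1 of 4, 3 of 3, 2 of 4 and 1 of 3 numbers were best matched by themselves. Between organs the lowest was 0.06 at 1340 mg/kg/d and 0.063 at 2680 mg/kg/d, with 3 of 4 and 3 of 3 numbers best matched by themselves. Between the water kidneys it was 0.038, with 2 of 3.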
